A study of Mus musculus with 12 samples.

Results

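The 8 genes Ermap, Kel, Rhag, Rhd, Slc4a1, Aqp1, Epb42 and Ank1, which encode membrane proteins and blood group carriers of the red cell, were followed across 4 populations of sorted mouse blood cells. They were taken by symbol, and all 8 listed genes were measured, with 14 of the 45101 probe sets on the array, as 8 of the 18193 genes that had a probe set of their own. A gene was read from its brightest probe set over the 12 arrays. All cells came from C57Bl/6 mice of 10 to 12 weeks. The spleen gave CD4+ T cells (2 arrays), sorted for CD4 and against CD8, B220 and Nk1.1. The bone marrow gave PreMegE cells (4 arrays), multipotent progenitors (MPP, 3 arrays) and haematopoietic stem cells (HSC, 3 arrays), all lineage-negative and cKit+. PreMegE cells had CD150 at the surface but none of Sca1, CD105 or CD41. MPP carried Sca1 and Flk2/Flt3 without CD150, and HSC carried Sca1 and CD150 without Flk2/Flt3. The HSC and MPP arrays were made for this series and the others taken from 2 earlier studies, so study and population cannot be told apart in comparisons across those sets.

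The red cell membrane is a lipid bilayer held to a spectrin mesh by protein complexes. Ankyrin (Ank1) and protein 4.2 (Epb42) tie that mesh to band 3 (Slc4a1), the chloride and bicarbonate exchanger, and the Rh proteins (Rhag, Rhd) sit in the same complexes. PreMegE cells are early progenitors of platelet-forming and red cells, and lie well before the stage at which haemoglobin fills the cell. In human cultures of red cell precursors, Kell and RhAG appear on the surface before band 3 and RhD. Kel and Rhag were therefore treated as early members and Slc4a1 and Rhd as late members. Epb42 was also counted as late, although that order does not cover it. Ermap, Aqp1 and Ank1 were not placed.

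Levels are given as log2 intensity, and differences on the log2 scale with their standard error (SE). Differences come from limma across all genes, and a gene counts as higher or lower (or as having risen or fallen) at an adjusted p under 0.05. The lower quartile over genes was 3.27 in CD4+ T cells, 3.32 in PreMegE, 3.28 in MPP and 3.35 in HSC. Where a mean falls below its quartile, the signal can be background and the size of a fold is uncertain. Median intensities per array were 14.4 to 15.6. All 11 measured T cell markers, with Cd4 of the sort among them, were higher in CD4+ T cells than in each other population. So were 4 of 9 B cell markers, where 17% of all genes were higher against HSC, 15.5% against MPP and 16.3% against PreMegE. Against HSC 1 B cell marker was lower, where 20.8% of all genes were. Ms4a1, a higher one, was at 6.45 and 6.76 on the T cell arrays, against 2.66 to 3.42 on the marrow arrays. Pax5 was at 3.46 and 3.37 on the T cell arrays, against 3.88 to 4.30 on the HSC arrays. Of 10 PreMegE markers, 6 were higher and 1 lower in PreMegE than in HSC, where 11.9% of all genes were higher and 17% lower. This list holds the genes of the sort markers cKit, CD150, CD105 and CD41 (Kit, Slamf1, Eng and Itga2b), so its count is partly set by the sort. Itga2b was at 8.14 to 8.82 in PreMegE and 10.45 to 10.63 in HSC. HSC replicate 2 stood apart: the summed intensity of 9 neutrophil markers was 4261 there, against 459 and 545 on the other HSC arrays, 642 to 2445 in PreMegE and 154 to 311 in MPP. HSC replicates 2 and 3 had Xist, the RNA of the inactive X chromosome, at 2.45 and 2.59, where HSC replicate 1 had 12.04 and the 9 arrays of the other populations 10.91 to 12.44. The part of this difference in the comparisons against HSC was not tested. In such bulk samples, fewer cells of a type and less RNA per cell cannot be told apart.

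In PreMegE against HSC, 5 of the 8 genes rose and 0 fell, where 11.9% of all genes were higher and 17% lower (28.9% in either direction). The rises were 10.2-fold for Ermap, 9.04-fold for Kel, 8.39-fold for Rhag, 3.61-fold for Aqp1 and 1.62-fold for Ank1. Slc4a1, Rhd and Epb42 did not pass. The median difference over the 8 genes was 1.27, against -0.01 over all genes. In MPP against HSC, 0 rose and 6 fell, where 6.38% of all genes were higher and 4.93% lower (11.3% in either direction). The falls were 13.4 times for Aqp1, 8.34 times for Ermap, 4.39 times for Rhag, 1.98 times for Kel, 1.94 times for Rhd and 1.76 times for Ank1, with a median over the 8 genes of -1.10 against -0.03 over all genes. In PreMegE against MPP, 7 rose and 0 fell, where 13.5% of all genes were higher and 19.5% lower (33% in either direction), and the median was 2.84 against 0.02. The arrays of the 2 populations did not overlap for 5 members in PreMegE against HSC (31.6% of all genes), 5 in MPP against HSC (29.8%) and 7 in PreMegE against MPP (39.3%). These comparisons share arrays and are given side by side.

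**Figure D1:**
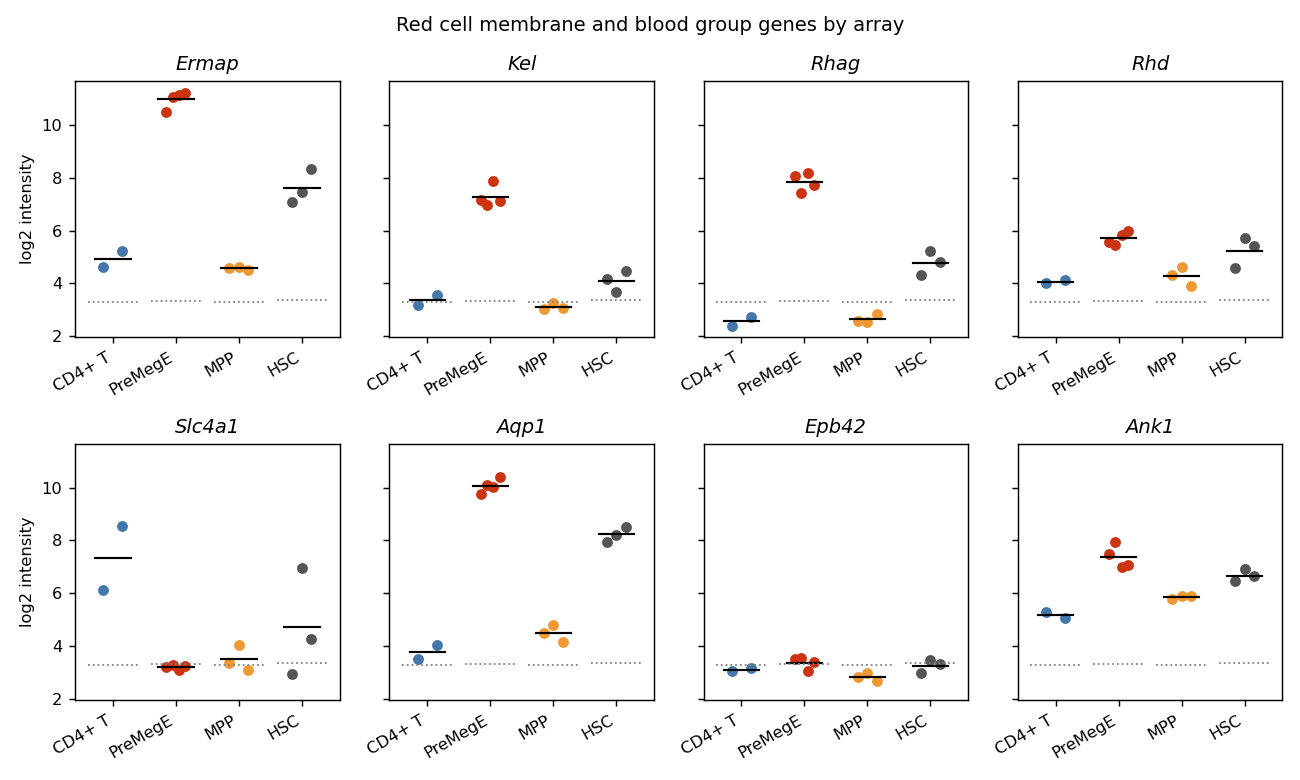
Log2 intensity of each of the 8 genes (brightest probe set) on each array of CD4+ T cells (2), PreMegE (4), MPP (3) and HSC (3). Points are arrays, bars are means and dotted lines are the lower quartile over all genes of that population. Ermap, Kel, Rhag and Aqp1 are highest on the 4 PreMegE arrays, whereas Slc4a1 is at 3.08 to 3.27 there and Epb42 is near the dotted line in every population.

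Ermap (chr4:119175457-119190013, build GRCm38.p6) encodes an erythroblast membrane protein of the butyrophilin-like family, whose human counterpart carries the Scianna blood group. It was at 10.51, 11.05, 11.13 and 11.22 on the PreMegE arrays, at 4.56, 4.61 and 4.52 on the MPP arrays and at 7.07, 7.48 and 8.32 on the HSC arrays. The 3 populations did not overlap, and the spread was narrow in MPP (SD 0.04) and wide in HSC (SD 0.64). Ermap rose by 3.35 ± 0.25 in PreMegE against HSC (adjusted p = 1.23e-07), fell by 3.06 ± 0.27 in MPP against HSC (2.40e-06), and was 85.3-fold higher in PreMegE than in MPP (6.41 ± 0.25, 5.04e-11).

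Kel (chr6:41686329-41704334) encodes the Kell protein, a zinc endopeptidase of the red cell surface. PreMegE arrays gave 7.15, 6.97, 7.87 and 7.12, MPP arrays 3.04, 3.24 and 3.05, and HSC arrays 4.17, 3.66 and 4.47. The MPP mean of 3.11 was under the lower quartile, and the HSC mean of 4.10 ± 0.41 (SD, n = 3) lay not far above it. Its rise in PreMegE against HSC was 3.18 ± 0.22 (adjusted p = 4.89e-08). Its fall in MPP against HSC, 0.99 ± 0.24 (0.0125), did not pass without HSC replicate 3 (0.0558), MPP replicate 1 (0.0504) or MPP replicate 3 (0.0521). In PreMegE against MPP Kel rose by 4.16 ± 0.22 (1.23e-09).

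Rhag (chr17:40811099-40844094) encodes the Rh-associated glycoprotein, an ammonia channel that the Rh protein needs to reach the surface. It was at 8.08, 7.43, 8.18 and 7.73 in PreMegE, at 2.56, 2.54 and 2.85 in MPP and at 4.32, 5.23 and 4.81 in HSC. Every PreMegE array lay above every HSC array, and every HSC array above every MPP array. The MPP mean was under the lower quartile. Rhag rose by 3.07 ± 0.22 in PreMegE against HSC (adjusted p = 6.01e-08), fell by 2.13 ± 0.23 in MPP against HSC (1.93e-05), and rose by 5.20 ± 0.22 in PreMegE against MPP (8.72e-11).

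Rhd (chr4:134864536-134896172), the mouse gene of the Rh blood group protein and partner of Rhag, moved less. Its values were 5.58, 5.44, 5.81 and 5.98 in PreMegE, 4.32, 4.61 and 3.90 in MPP and 4.56, 5.70 and 5.43 in HSC. PreMegE and HSC arrays overlapped, and the difference of 0.47 ± 0.24 did not pass (adjusted p = 0.174). Rhd rose by 1.43 ± 0.24 in PreMegE against MPP (2.37e-04). The fall of 0.96 ± 0.26 in MPP against HSC (0.0248) came with overlapping arrays and did not pass without HSC replicate 2 (0.126) or 3 (0.0816), or MPP replicate 1 (0.0673) or 3 (0.135). HSC replicate 2, which has the high neutrophil markers, gave the highest HSC value of Rhd. On the brightest probe sets it also gave the highest HSC value of Rhag, Slc4a1, Ank1 and Epb42, and the lowest of Kel.

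Promoter windows of 250 bases before to 50 after the start, from RefSeq (GRCm38.p6), were matched by gene ID for 6 of the 8 genes, and those of Slc4a1 and Ank1 were not analysed here. GATA1 and KLF1 are regulators of red cell genes, and the windows were searched on both strands for AGATAA, with T also taken as the first letter and G as the last (GATA), and for CCNCNCCC (KLF). Matches are shown in capitals, and the windows of the genes with the largest rises in PreMegE are printed, since these moved together.
Ermap (chr4:119189946-119190245, minus strand): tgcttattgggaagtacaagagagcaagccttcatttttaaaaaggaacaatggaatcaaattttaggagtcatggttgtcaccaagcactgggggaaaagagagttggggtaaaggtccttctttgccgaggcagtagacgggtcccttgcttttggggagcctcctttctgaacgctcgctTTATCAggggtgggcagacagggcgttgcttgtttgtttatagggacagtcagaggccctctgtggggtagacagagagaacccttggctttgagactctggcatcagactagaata
Kel (chr6:41704276-41704575, minus strand): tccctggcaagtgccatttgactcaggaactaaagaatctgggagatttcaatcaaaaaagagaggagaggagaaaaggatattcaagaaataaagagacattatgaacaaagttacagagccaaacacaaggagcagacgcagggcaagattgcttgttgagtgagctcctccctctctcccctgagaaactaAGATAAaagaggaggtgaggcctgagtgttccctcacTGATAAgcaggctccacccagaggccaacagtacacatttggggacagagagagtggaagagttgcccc
Rhag (chr17:40810899-40811198, plus strand): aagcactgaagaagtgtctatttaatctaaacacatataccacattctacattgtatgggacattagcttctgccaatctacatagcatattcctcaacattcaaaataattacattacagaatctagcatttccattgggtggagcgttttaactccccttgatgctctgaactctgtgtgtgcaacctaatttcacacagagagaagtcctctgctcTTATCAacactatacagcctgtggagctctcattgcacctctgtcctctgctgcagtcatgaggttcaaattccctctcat
Aqp1 (chr6:55336049-55336348, plus strand): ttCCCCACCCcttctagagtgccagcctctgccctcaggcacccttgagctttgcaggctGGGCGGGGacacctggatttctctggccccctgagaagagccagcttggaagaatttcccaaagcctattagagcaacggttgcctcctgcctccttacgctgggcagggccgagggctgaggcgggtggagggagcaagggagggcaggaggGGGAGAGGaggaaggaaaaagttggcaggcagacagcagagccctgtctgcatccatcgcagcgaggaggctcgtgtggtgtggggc

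A GATA match was found in 5 of the 6 windows (Ermap, Kel, Rhag, Rhd and Epb42), against 30.2% of the windows of 27025 genes. The first letter of the match lay 67 bases before the start in Ermap, 56 and 19 in Kel, 31 in Rhag, 43 in Rhd and 226 in Epb42. The start is that used for the window. In Ermap, Kel and Rhag it lies inside the gene span given above, and the Rhag match itself falls within that span. Counting only the 100 bases before the start, a span chosen after the matches were seen, 4 members (Ermap, Kel, Rhag and Rhd) held one, against 10.6% of all windows. Aqp1, whose window is printed last, had no GATA match and 3 KLF matches. Rhd also had a KLF match, so 2 of 6 windows held one, against 49.1% of all windows. These are matches of letters only.

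Aqp1 (chr6:55336299-55348555) encodes the water channel aquaporin-1, which carries the Colton blood group in humans and is also made by endothelium. It stood at 9.76, 10.11, 10.02 and 10.42 in PreMegE, at 4.49, 4.80 and 4.16 in MPP and at 7.95, 8.21 and 8.52 in HSC. No array of these populations overlapped another population. Aqp1 had the largest fall of the 8 genes in MPP against HSC (3.74 ± 0.22 lower, adjusted p = 2.53e-08). It rose by 1.85 ± 0.20 in PreMegE against HSC (5.17e-06) and by 5.60 ± 0.20 in PreMegE against MPP (2.42e-11). Of 15 endothelial markers, 1 rose and 6 fell in PreMegE against HSC, where 11.9% of all genes were higher and 17% lower. In MPP against HSC 2 of these markers rose and 5 fell, where 6.38% of all genes were higher and 4.93% lower. The part of endothelial cells in the Aqp1 values was not tested. The summed intensity of the 15 markers was 655 to 743 in PreMegE, 1202 to 1260 in MPP and 1091 to 1142 in HSC. Single markers differed. Cdh5 was near the lower quartile, at 2.86 to 3.31 in PreMegE, 3.21 to 3.36 in MPP and 3.23 to 3.41 in HSC. Plvap was at 5.29 to 6.33 in PreMegE, 4.52 to 4.93 in MPP and 4.75 to 5.27 in HSC. Tek was at 6.25 to 7.11, 5.57 to 5.67 and 6.97 to 7.65 in the same order, and Erg at 7.53 to 8.20, 8.48 to 8.57 and 8.02 to 8.46.

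Ank1 (chr8:22974836-23150501), the erythrocyte ankyrin gene, shifted in the same directions by less. Its brightest probe set was at 7.47, 7.94, 6.99 and 7.05 in PreMegE, at 5.79, 5.88 and 5.88 in MPP and at 6.47, 6.90 and 6.64 in HSC, with no overlap. It rose by 0.69 ± 0.20 in PreMegE against HSC (adjusted p = 0.0171) and by 1.51 ± 0.20 in PreMegE against MPP (2.71e-05), and fell by 0.82 ± 0.22 in MPP against HSC (0.0227). The rise did not pass without HSC replicate 1 (0.0850). The fall did not pass without HSC replicate 2 (0.0998), or MPP replicate 1 (0.0814), 2 (0.0622) or 3 (0.0680). The other 3 probe sets of Ank1 gave differences of -3.97e-04, 0.03 and 0.04 in PreMegE against HSC, at adjusted p-values over all probe sets of 0.999, 0.944 and 0.903. In MPP against HSC they gave -0.11, -0.50 and -0.23 (0.811, 0.149 and 0.556). Both calls against HSC thus rested on the brightest probe set alone. In PreMegE against MPP the others gave 0.11, 0.53 and 0.27 (0.656, 0.0398 and 0.249), so 1 of them also passed.

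Slc4a1 (chr11:102348820-102365281), the band 3 gene, was at or near background on most marrow arrays. On its brightest probe set the PreMegE arrays gave 3.20, 3.27, 3.08 and 3.23, the MPP arrays 3.35, 4.05 and 3.09 and the HSC arrays 2.92, 6.94 and 4.25. The PreMegE mean of 3.19 ± 0.08 (SD, n = 4) was under the lower quartile. HSC replicate 2 alone was bright among the marrow arrays, and the next probe set gave 6.50 there, against 3.24 and 4.01 on the other HSC arrays. The difference of PreMegE from HSC, -1.51 ± 0.69, did not pass (adjusted p = 0.124). It passed without HSC replicate 1 (-2.40, 0.0122) and was -0.39 (0.647) without HSC replicate 2. MPP against HSC gave -1.21 ± 0.74 (0.382), and -0.09 without HSC replicate 2. Its remaining probe set lay between 2.67 and 3.66 on all 12 arrays.

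Epb42 (chr2:121017891-121036877), the gene of protein 4.2, was dim everywhere. Its brightest probe set ran from 3.06 to 3.54 in PreMegE, 2.67 to 2.98 in MPP and 2.97 to 3.46 in HSC, and the MPP and HSC means were under the lower quartile. The difference of PreMegE from HSC was 0.13 ± 0.16 (adjusted p = 0.639). Epb42 was called 1.46-fold higher in PreMegE than in MPP (0.0167), a call that ended without MPP replicate 3 (0.0884) or PreMegE replicate 2 (0.0506) and that its other probe set did not make (0.29, adjusted p = 0.162 over all probe sets).

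**Figure D2:**
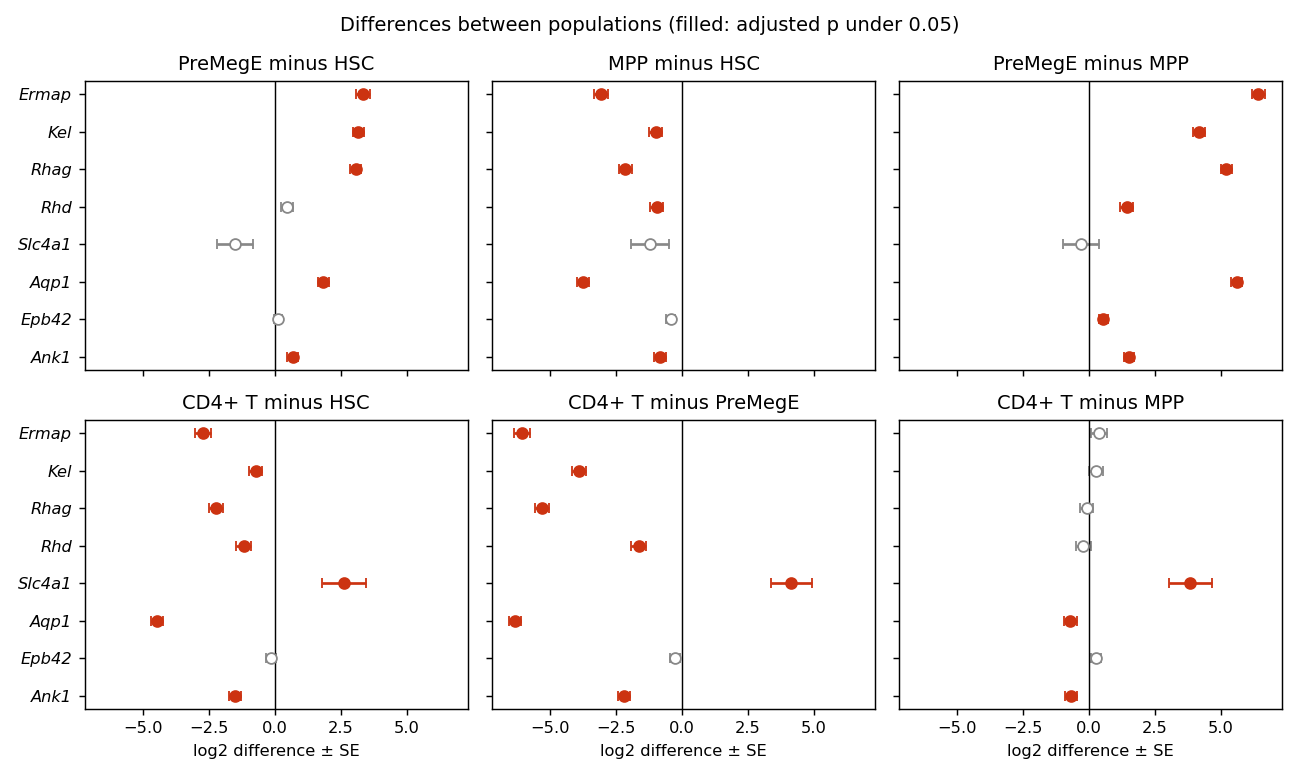
Log2 differences ± SE of the 8 genes in the 6 comparisons, from the fit over all genes. Filled points passed an adjusted p of 0.05. Filled points stand to the right for 5 genes in PreMegE minus HSC and to the left for 6 in MPP minus HSC, and Slc4a1 is the one filled point to the right in each CD4+ T cell panel.

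The average changes of early and late members differed in PreMegE. Against HSC, the early members Kel and Rhag changed by 3.12 on average and the late members Slc4a1, Epb42 and Rhd by -0.30, a gap of 3.43. Against MPP the averages were 4.68 and 0.56, a gap of 4.13. With Ermap counted as early and Aqp1 and Ank1 as late the gaps were 2.87 and 3.51. In MPP against HSC the early average was -1.56 and the late one -0.86, a gap of -0.70. These averages describe members chosen with results known and have no test. Of the late members, Epb42 in MPP and HSC and Slc4a1 in PreMegE had means under the lower quartile, which can be background. Both early members had such means in MPP (Kel 3.11 and Rhag 2.65), so the size of the early averages and gaps that involve MPP is uncertain too. Rhd, above the quartile in every population, rose by 1.43 ± 0.24 in PreMegE against MPP, and its 0.47 ± 0.24 against HSC did not pass. The late average against HSC rests partly on the bright Slc4a1 value of HSC replicate 2, without which the gap in PreMegE was 2.94.

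The order of the populations differed between genes. Aqp1 and Ank1 ran from PreMegE through HSC and MPP to CD4+ T cells, and each step passed. For Ank1 each step rested on its brightest probe set alone, and the last step did not pass when adjusted over all probe sets (adjusted p = 0.0566). Rhag ran from PreMegE to HSC and then to MPP and CD4+ T cells, whose means were both under the lower quartile and have no order (adjusted p = 0.843). Ermap and Kel had MPP last, just behind CD4+ T cells, a step that did not pass (0.423 and 0.509). Rhd had the order of Aqp1, but only its step from HSC to MPP passed. Slc4a1 alone had CD4+ T cells first, and HSC, MPP and PreMegE behind them did not differ detectably (0.382 and 0.792). For Epb42 no neighbouring step passed.

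CD4+ T cells served as a mature cell outside the red cell line. Against PreMegE, 6 of the 8 genes fell and 1, Slc4a1, rose, where 16.8% of all genes were lower and 16.3% higher (33.1% in either direction). Against HSC, 6 fell and 1 rose, where 20.8% were lower and 17% higher (37.8% in either direction). Against MPP, 2 fell and 1 rose, where 20% were lower and 15.5% higher (35.5% in either direction). The CD4+ T cell arrays did not overlap the others for 7 members against PreMegE (43.9% of all genes), 6 against HSC (54.3%) and 5 against MPP (57.8%). Ermap was at 4.62 and 5.23 on the CD4+ T cell arrays, Kel at 3.19 and 3.57, Rhag at 2.40 and 2.72, and Rhd at 4.01 and 4.12. Aqp1 was at 3.52 and 4.02, Epb42 at 3.04 and 3.17, and Ank1 at 5.29 and 5.06. The Rhag and Epb42 means were under the lower quartile. The largest falls against PreMegE were 6.31 ± 0.23 for Aqp1 (adjusted p = 6.24e-12) and 6.05 ± 0.29 for Ermap (1.28e-10).

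Several smaller falls in CD4+ T cells depended on single arrays. The 0.72 ± 0.26 fall of Kel against HSC (adjusted p = 0.0423) did not pass when HSC replicate 1 or 3, any MPP array, either CD4+ T cell array or replicate 4 of PreMegE was left out (0.0507 to 0.267). The 0.71 ± 0.24 fall of Aqp1 against MPP (0.0314) did not pass without MPP replicate 1 (0.0694) or 2 (0.129) or CD4+ T cell replicate 1 (0.290). The 0.68 ± 0.24 fall of Ank1 against MPP (0.0393) did not pass when any MPP or CD4+ T cell array was left out (0.0669 to 0.215). The other probe sets of Ank1 gave -0.06, -0.14 and 0.23 against MPP (adjusted p = 0.856, 0.706 and 0.444 over all probe sets).

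Slc4a1 ran the other way. Its brightest probe set was at 6.13 and 8.54 on the CD4+ T cell arrays, above all 4 PreMegE and 3 MPP arrays, while HSC replicate 2 at 6.94 lay between them. It was 17.7-fold higher in CD4+ T cells than in PreMegE (4.14 ± 0.78, adjusted p = 5.16e-04) and 14.3-fold higher than in MPP (3.84 ± 0.82, 0.00144). Against HSC it was 2.64 ± 0.82 higher (0.0183), which did not pass without CD4+ T cell replicate 2 (1.43, 0.293) or HSC replicate 1 (1.74, 0.0827) or 3 (2.41, 0.0527). The next probe set was at 4.85 and 6.13 on the CD4+ T cell arrays and gave 2.07 ± 0.65 against PreMegE, 2.13 ± 0.68 against MPP and 0.91 ± 0.68 against HSC (adjusted p = 0.0310, 0.0322 and 0.385 over all probe sets). The brightest probe set is of a type that can bind other transcripts, and the remaining one gave 2.88 and 3.66.

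Some late red cell genes were high on the same arrays. Alas2, the first enzyme of haem synthesis in red cells, was at 7.42 and 9.35 in CD4+ T cells, at 3.07 to 3.37 in PreMegE, at 3.02 to 4.06 in MPP and at 3.26, 5.53 and 3.49 in HSC. Trim10, a ubiquitin ligase of erythroblasts, was at 5.22 and 7.32 in CD4+ T cells and at 3.97 to 4.74 in HSC. Bpgm, which makes the oxygen-affinity regulator of red cells, was at 8.61 and 9.99 in CD4+ T cells and at 7.55, 7.55 and 7.56 in HSC. CD4+ T cell replicate 2 was the higher T cell array for all of these, as for Slc4a1. Of the 20 measured genes listed as late red cell products, 5 rose (Alas2, Trim10, Bpgm, Hbb-bh1 and Fech) and 5 fell in CD4+ T cells against HSC. In that comparison 17% of all genes were higher and 20.8% lower. The falls were led by Car1, a carbonic anhydrase (-6.34 ± 0.27), and Hemgn, a nuclear factor of blood progenitors (-5.86 ± 0.17). Car1, Hemgn and Car2, which also fell, had HSC means of 10.13, 11.09 and 10.58, so these listed genes were already high in HSC. The summed intensity of the 20 products was 2025 and 3878 in CD4+ T cells, 11748 to 15560 in PreMegE, 3738 to 4208 in MPP and 6052 to 7371 in HSC. This linear sum is weighted to its brightest genes, in PreMegE Car1 at 12.38 to 12.87 and Car2 at 11.26 to 11.58. Trim10, like Alas2, was dim in PreMegE, at 3.49 to 4.23. The part of red cell precursors in these T cell values was not tested. Probe sets that name several globin genes at once were not used, and of 5 single-gene globin probe sets 1 passed in CD4+ T cells against HSC. That was the embryonic globin Hbb-bh1, at 3.93 and 4.43 in CD4+ T cells and at 2.81, 3.33 and 3.51 in HSC (0.96 ± 0.22 higher, adjusted p = 0.00234). Hbb-bh1 was also higher in CD4+ T cells than in PreMegE (0.62 ± 0.21) and MPP (1.16 ± 0.22). Its means in HSC and MPP were under the lower quartile, so its signal there can be background and the size of these differences is uncertain.

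**Figure D3:**
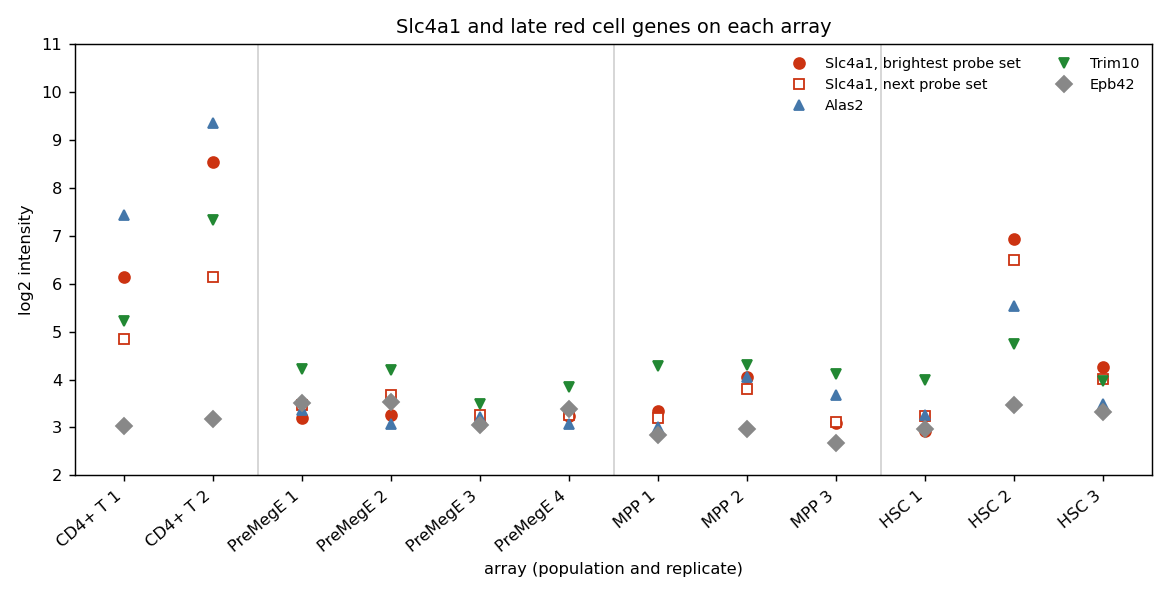
Log2 intensity on each of the 12 arrays of the brightest and next probe sets of Slc4a1, the late red cell genes Alas2 and Trim10, and Epb42. The Slc4a1 and Alas2 points are high on both CD4+ T cell arrays and on HSC replicate 2, while Epb42 runs between 2.67 and 3.54 on all arrays.

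Other genes of the pathway were counted by list, to be read beside the shares of all genes. In PreMegE against HSC 11.9% of all genes were higher and 17% lower, and in MPP against HSC 6.38% and 4.93%. In PreMegE against MPP the shares were 13.5% and 19.5%. They apply to each list below. Of 20 regulators of red cell genes, 10 rose and 3 fell in PreMegE against HSC (median 0.54), 0 rose and 9 fell in MPP against HSC (median -0.48), and 16 rose and 1 fell in PreMegE against MPP (median 1.01). Klf1, the erythroid Krüppel-like factor, rose by 3.54 ± 0.19 in PreMegE and fell by 2.98 ± 0.21 in MPP, both against HSC. Gata1 rose by 1.18 ± 0.14 and fell by 3.52 ± 0.15 in the same comparisons. Epor, the erythropoietin receptor, rose by 1.78 ± 0.24 in PreMegE, and Ldb1, which bridges GATA1 complexes, by 1.40 ± 0.23, whereas Sox6 fell by 1.68 ± 0.24 in PreMegE and fell by 2.10 ± 0.26 in MPP. Zfpm1, the GATA1 cofactor FOG1, fell by 1.60 ± 0.18 in MPP. Tal1 fell by 1.15 ± 0.17 in MPP, and its difference between PreMegE and HSC, -0.13 ± 0.16, did not pass (adjusted p = 0.613).

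Among 21 other red cell membrane genes, 6 rose and 8 fell in PreMegE against HSC (median -0.15), and 3 rose and 2 fell in MPP (median -0.11). Tspo2, a membrane protein of the erythroid line, rose by 3.79 ± 0.18 in PreMegE to 8.24, the largest rise of the list. Add3, an adducin of the spectrin mesh (1.29 ± 0.31), and Stom, stomatin (1.17 ± 0.19), rose too, Add3 with overlapping arrays. Slc29a1, a nucleoside transporter, fell by 2.02 ± 0.20 in PreMegE and rose by 1.61 ± 0.21 in MPP. Stom (-0.78 ± 0.21) and Tmod1, which caps actin filaments (-0.71 ± 0.17), fell in MPP, and Mpp1, a palmitoylated membrane scaffold (0.74 ± 0.17), rose. Slc2a1, the glucose transporter, was lower in PreMegE than in MPP (-1.47 ± 0.20).

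Of 24 other genes whose human counterparts carry blood groups, 6 rose and 8 fell in PreMegE against HSC (median -0.15), and 5 rose and 6 fell in MPP (median -0.26). Cd55, the Cromer antigen and complement regulator, rose by 2.20 ± 0.23 in PreMegE, and Cd59a, another complement regulator, by 2.09 ± 0.17. Gcnt2, the enzyme that makes the I antigen, fell by 3.84 ± 0.14 there. Icam4, which carries the LW antigen, fell by 1.76 ± 0.14 in MPP, Slc14a1, the Kidd urea transporter, fell by 1.73 ± 0.22, and Sema7a, the John Milton Hagen antigen, fell by 1.48 ± 0.20. Slc14a1 was 3.05 ± 0.20 higher in PreMegE than in MPP.

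Of 20 family relatives of the 8 genes, 3 rose and 3 fell in PreMegE against HSC (median -0.06), and 0 rose and 1 fell in MPP (median -0.14). Of all genes, 11.9% were higher and 17% lower in PreMegE against HSC, so these counts lie near the general rate. Aqp9, a glycerol and water channel, rose by 2.07 ± 0.17 in PreMegE, and Aqp11 by 0.89 ± 0.26 with overlapping arrays. Tgm2, a transglutaminase of the family to which protein 4.2 belongs, fell by 5.76 ± 0.28 in PreMegE and fell by 2.11 ± 0.30 in MPP, and Ece1, a protease related to Kell, fell by 0.59 ± 0.18 in PreMegE. Aqp5 was called 0.67 ± 0.17 higher in PreMegE than in MPP, at 3.30 and 2.64, both under the lower quartile.

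Of the 20 late red cell products, 6 rose and 2 fell in PreMegE against HSC (median -0.02), and 1 rose and 3 fell in MPP (median -0.06). Blvrb, biliverdin reductase B (2.54 ± 0.19), Car1 (2.54 ± 0.23), the glutathione synthesis gene Gclm (1.65 ± 0.18) and Car2 (0.86 ± 0.30) rose in PreMegE. Car1 and Car2 were already at 10.13 and 10.58 in HSC. Alas2, Trim10 and Bpgm did not pass in PreMegE against HSC (adjusted p = 0.189, 0.621 and 0.314). Car1 (-4.03 ± 0.24), Hemgn (-1.80 ± 0.15) and Blvrb (-0.88 ± 0.21) fell in MPP, where the single-gene Hba-a2 probe set rose by 0.87 ± 0.23 to 4.50. Among 14 megakaryocyte markers, 0 rose and 11 fell in PreMegE against HSC, 1 rose and 10 fell in MPP against HSC, and 6 rose and 3 fell in PreMegE against MPP.

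**Figure D4:**
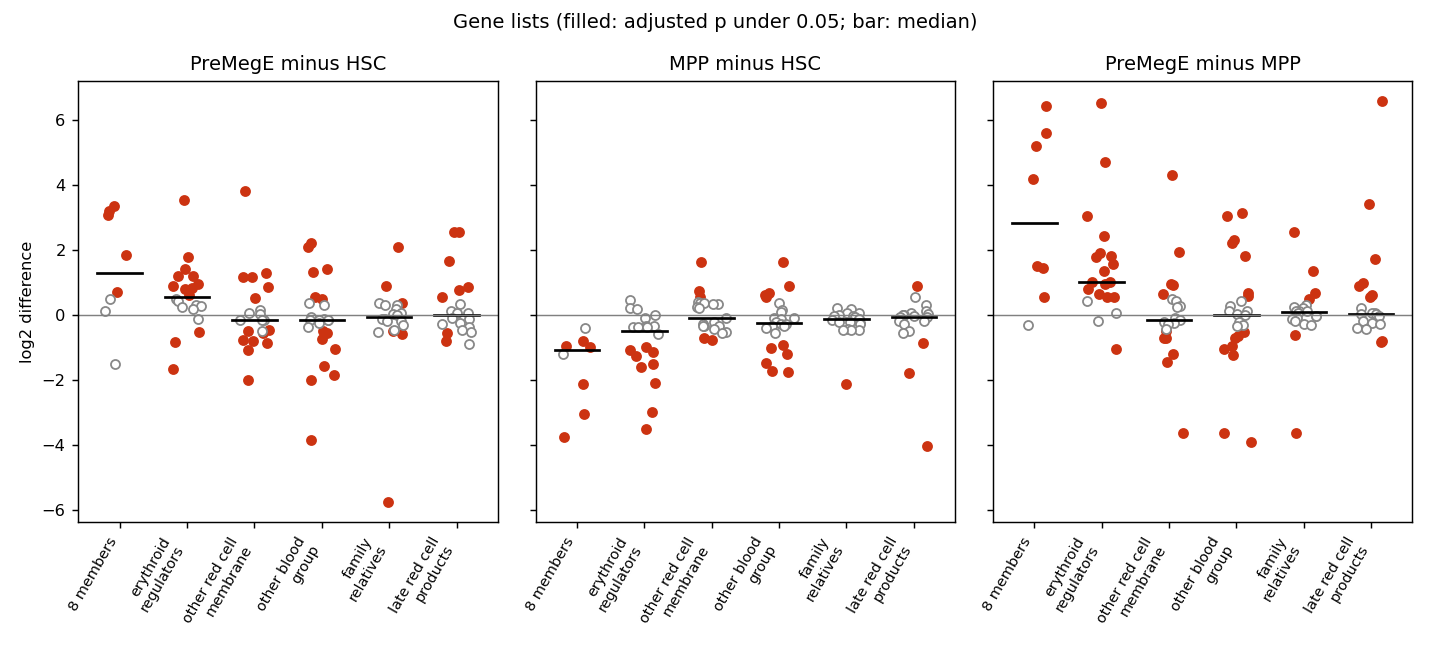
Log2 differences of the 8 genes, of 20 erythroid regulators, 21 other red cell membrane genes, 24 other blood group genes, 20 family relatives and 20 late red cell products in PreMegE minus HSC, MPP minus HSC and PreMegE minus MPP. Points are genes, filled where the adjusted p was under 0.05, and bars are medians. The medians of the 8 genes are 1.27, -1.10 and 2.84, and those of the regulators 0.54, -0.48 and 1.01.

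The genes most like each member over the 12 arrays were sought among 9697 genes, by Pearson correlation of log2 intensity. The 12 points fall into 4 populations, which share their means within a population. Klf1 was the most alike to Ermap (r = 0.995), followed by Samd14 (0.992) and Mmp14 (0.991). Klf1 and Mmp14 also came first for Rhag (0.993 each), ahead of Ces2g (0.989). For Kel these were Reps2 (0.992), Dnah12 (0.990) and Mylk3 (0.987), and for Aqp1 they were Gata1 (0.985), Car1 (0.985) and Mfsd2b (0.982). Ank1 was most like Fzd7 (0.952), Lhfpl2 (0.951) and Car1 (0.949), and Rhd was most like Gramd1c (0.952), Pttg1ip (0.947) and Jade1 (0.937). The closest gene to Slc4a1 was Alas2 (0.937), then Cd300c2 (0.921) and Plagl1 (0.918). For Epb42 they were Pigz (0.935), Acr (0.927) and Fmo2 (0.910), over a range of Epb42 values of less than 1 log2 unit.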

How the data were processed

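Expression was measured on Affymetrix arrays in 12 samples. The authors deposited an intensity for each probe set, made with RMA, per the submitters' processing notes, with the version and the arrays processed together not given in the sources used here. The intensities are linear and positive, so log2 was taken before every test, as the planned design foresaw, with no further normalisation or filter. Platform annotation named 34945 probe sets with 1 gene symbol, 932 with several and 9160 with none, and 64 control probe sets were left out. RefSeq gene IDs (GRCm38.p6) changed 0 symbols and gave positions.

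limma 3.58.1 in R 4.3.3 was fitted to all 12 arrays with a mean per population. Tests were two-sided, after eBayes, with p-values adjusted by Benjamini-Hochberg over 18193 genes, or over all probe sets where stated. The procedure was tested on simulated data. Groups came from the sample titles. The design text gives the HSC and MPP replicates as separate sorts and no label names the animals, so the p-values cover the spread among sorts, which may be technical, and the number of arrays limits precision. The description of PreMegE replicate 4 calls it replicate 3, and averaging both was an alternative, beside other normalisations, filters, probe set choices, a pseudocount and arrays left out. The members and lists were chosen with earlier results of these data known. Named genes were the 8 members with every probe set, up to 4 called genes with the largest change per list and marrow comparison, the 3 genes most alike to each member, and Gata1, Klf1 and Tal1. The most alike genes were those with a log2 range of at least 1, without clone names and gene models. Markers of other cells were summed per array. Replicate numbers were checked as pairs: deviations from the population means of same-numbered arrays correlated at -0.12 to 0.41 across genes, above 0.1 in 3 of 15 pairs, so the numbers were not taken as pairs.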

Additional observations from a re-analysis of the deposited data

How the results depend on the processing

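Counts and differences were recomputed under 23 other settings (22 for Epb42), and the gap between early and late members under 16. Of the 23, 12 left out a single array. Another, without HSC replicate 2 and CD4+ T cell replicate 2, was chosen after seeing the data. Over the single arrays left out, the number of members called ranged from 5 to 5 in PreMegE against HSC, from 6 to 7 in PreMegE against MPP, from 3 to 6 in MPP against HSC, from 5 to 7 in CD4+ T cells against HSC, from 1 to 3 against MPP and from 7 to 7 against PreMegE. The 5 in PreMegE against HSC were not the same genes throughout: without HSC replicate 1 Slc4a1 was called lower (-2.40) and Ank1 was lost. With log2(value + 16), 3 members were called in MPP against HSC and 1 in CD4+ T cells against MPP. Cyclic loess gave 1 in CD4+ T cells against MPP, and the next brightest probe set gave 4 in CD4+ T cells against HSC. The next brightest probe set turned Ank1 in PreMegE against HSC to -0.000397 (adjusted p = 0.999).

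The gap between early and late members ranged over single arrays left out from 2.94 to 3.78 in PreMegE against HSC, from 3.94 to 4.32 in PreMegE against MPP, from -1.19 to -0.34 in MPP against HSC, and in CD4+ T cells from -2.40 to -1.56 against HSC, from -1.49 to -0.95 against MPP and from -5.61 to -5.07 against PreMegE. With Ermap early and Aqp1 and Ank1 late it was 3.51 in PreMegE against MPP, and -0.96, -0.33 and -3.83 in CD4+ T cells against HSC, MPP and PreMegE. Averaging each gene's probe sets gave -0.58 in CD4+ T cells against MPP and -4.69 against PreMegE.

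With the replicate number as a block, 6 members were called in MPP against HSC, 5 in PreMegE against HSC, 7 in PreMegE against MPP, and 6, 3 and 7 in CD4+ T cells against HSC, MPP and PreMegE. The call of Kel in CD4+ T cells against HSC ended (0.0869) and no other member's did. Over members, comparisons and settings, 1028 values kept their direction and side of the threshold, 63 lost the call, 1 gained it and 6 changed sign. Of these 6, 5 were of differences never called: with the next brightest probe set Epb42 in PreMegE against HSC was -0.0993 and Slc4a1 in PreMegE against MPP was 0.0526. Over single arrays left out, Epb42 in PreMegE against HSC ranged from -0.0160 to 0.231, below 0 without HSC replicate 1, and Rhag in CD4+ T cells against MPP from -0.254 to 0.0661, above 0 without MPP replicate 3 or CD4+ T cell replicate 1. Ermap and Rhag lost no call in any comparison, and Aqp1 lost none but that in CD4+ T cells against MPP. Without MPP replicate 3, 1280 genes in all were called in MPP against HSC, against 2058 with all arrays. The share of higher genes among those was 56.4%, and 44.4% after quantile normalisation. Intensities under the lower quartile carry no order, which limits Epb42 in CD4+ T cells, MPP and HSC, Slc4a1 in PreMegE, Kel in MPP and Rhag in CD4+ T cells and MPP.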
